A study of Mus musculus with 6 samples.

Results

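The 9 genes Fam102b, Nacc2, Osgin1, Morc1, Rgmb, Rab38, Evi5, Col27a1 and Eya2 are little discussed in T cells and were followed here in helper (CD4+) T cells of the mouse. They were picked because their signals on the arrays of the RA and Ro groups did not overlap, or because Ro differed from Control, so their differences in those comparisons are a description and carry no test. Every probe set annotated with exactly 1 of these symbols was taken, which gave 21 of the 45037 non-control probe sets, and 20 of the 21 passed the filter on dim values. RNA of cells from spleen and of peripheral and mesenteric lymph nodes had been put on 6 oligonucleotide arrays, 2 each for RA, Ro and Control. RA is the retinoic acid named in the series title, while Ro is given without its full name. The labels used here give no strain or age, and no dose or duration for RA or Ro. A culture recipe is attached to Control replicate 2 alone. It was 5 days with IL-2 at 100 U/ml, TGF-b1 at 5 ng/ml, IL-6 and TNF-a at 20 ng/ml each, IL-1b, IL-23 and IL-21 at 10 ng/ml each, and antibodies against IL-4 (10 ng/ml) and IFN-gamma (10 ug/ml). Nothing says that the arrays of a group came from separate cultures or animals, so the spread within RA and within Ro may be technical. The 2 Control arrays differed in sex-linked transcripts, as given below, so their spread is not taken as technical.

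Retinoic acid acts through nuclear receptors that bind repeats of a short DNA half-site and switch nearby genes on or off, and in T cells it is best known for imprinting receptors that send the cells to the gut. The 9 genes do not form a pathway. Nacc2, Eya2 and Morc1 code for nuclear proteins. Rgmb, Rab38 and Evi5 serve signalling at the membrane and vesicle traffic. Fam102b, Osgin1 and Col27a1 code for a protein named after its sequence family, a stress-induced growth inhibitor and a collagen.

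By correlation the arrays were alike except for Control replicate 2. Over the tested probe sets its log2 values correlated with those of the other arrays at 0.869 to 0.880, against 0.947 to 0.970 among the other 5. It had the Y-linked gene Eif2s3y at 0.972, where the other 5 arrays had 747 to 967, and Xist, the RNA of the inactive X chromosome, at 4326. Xist lay between 13.1 and 22.7 in RA and Ro and was 680 on Control replicate 1, so in Xist that array differed from RA and Ro too. Median signals ran from 16.3 to 23.8 arbitrary units. A signal is called dim below when it lies at or under the 40th percentile of its array, which was 9.54 to 12.6. The T cell markers were bright on every array, with summed signals of 36914 and 35125 in RA, 37232 and 43788 in Ro, and 39073 and 30964 in Control over 11 of 12 listed genes. Cd8a was 4.29 to 23.2 on 5 arrays and 236 on Control replicate 2. Cd8b1, the other CD8 gene listed, did not rise there, with 54.6 and 86.7 in RA, 124 and 164 in Ro, and 124 and 85.0 in Control. In RNA from a whole culture, fewer cells of a type and less RNA per cell cannot be told apart.

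For 3 of the genes the 250 bases before the outermost start in the RefSeq table (GRCm38.p6) are shown: Fam102b, the gene with the widest gap between its Control arrays, and Nacc2 and Rgmb, which had the highest ratios of Ro over RA among the 9. Capitals mark the GC box GGGCGG and the antioxidant response element core TGACNNNGC, each on either strand. They lie at chr3:109027608-109027857 for Fam102b, chr2:26122812-26123061 for Nacc2 and chr17:15831247-15831496 for Rgmb, all on the minus strand, and are written in the direction of the gene.
Fam102b: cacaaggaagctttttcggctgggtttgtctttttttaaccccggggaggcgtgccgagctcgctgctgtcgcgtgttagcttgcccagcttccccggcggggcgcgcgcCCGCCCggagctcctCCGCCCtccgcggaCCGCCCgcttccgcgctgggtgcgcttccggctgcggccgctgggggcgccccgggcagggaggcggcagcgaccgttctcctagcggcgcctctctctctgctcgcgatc
Nacc2: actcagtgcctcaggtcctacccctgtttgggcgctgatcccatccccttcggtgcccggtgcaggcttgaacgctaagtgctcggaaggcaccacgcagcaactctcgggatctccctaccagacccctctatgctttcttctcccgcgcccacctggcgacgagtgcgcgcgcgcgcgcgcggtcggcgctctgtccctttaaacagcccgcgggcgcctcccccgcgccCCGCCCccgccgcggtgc
Rgmb: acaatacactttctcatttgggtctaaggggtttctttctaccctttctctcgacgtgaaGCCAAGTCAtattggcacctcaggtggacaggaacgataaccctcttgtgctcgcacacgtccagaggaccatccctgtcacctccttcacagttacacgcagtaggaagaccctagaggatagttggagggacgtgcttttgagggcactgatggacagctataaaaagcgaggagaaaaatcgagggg

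The Fam102b stretch holds 3 GC boxes and the Nacc2 stretch 1, a motif found in 32.7% of the 32851 RefSeq windows of the same length. The Rgmb stretch holds 1 antioxidant core, which 10.2% of all windows hold. The half-site AGGTCA, the unit of retinoic acid response elements, occurs in none of the 9 windows that the table gives for 6 of the genes, and in 14.0% of all windows. Its letters on the other strand, TGACCT, can overlap the antioxidant core. The variant half-site AGTTCA, in 11.8% of all windows, was found in the Osgin1 window alone. Direct repeats of AGGTCA or of AGTTCA spaced by 5 bases, also searched on both strands, occur in 3 and 7 of the 32851 windows and in none of these genes. Base composition differs between the stretches, with G and C making up 72.0% of the Fam102b stretch, 69.6% of the Nacc2 stretch and 50% of the Rgmb stretch, against a median of 52.4% over all windows. Windows at further starts, not shown, differ from these. Those of Rgmb have 66% and 63.6% G and C and hold 2 and 4 GC boxes. That of Nacc2 has 57.2% and holds 1 antioxidant core but no GC box. No match says only that these letters are not in these windows.

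Each gene is represented by 1 tested probe set. On these 9 probe sets the RA and Ro arrays did not overlap, with RA higher for Fam102b, Osgin1, Morc1, Evi5 and Eya2 and lower for Nacc2, Rgmb, Rab38 and Col27a1. Over all 21 probe sets 18 did not overlap. Of the 29507 tested probe sets 40.7% had RA and Ro arrays that did not overlap, 6.83% with RA higher and 33.9% with RA lower, and 6.01% also differed by at least 2-fold. Since the genes were chosen for it, nothing is read from their own share. The background shares use signals that were not centred, with a median log2 difference of RA minus Ro of -0.21. The part of this offset between the arrays in the split by direction was not tested.

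**Figure D1:**
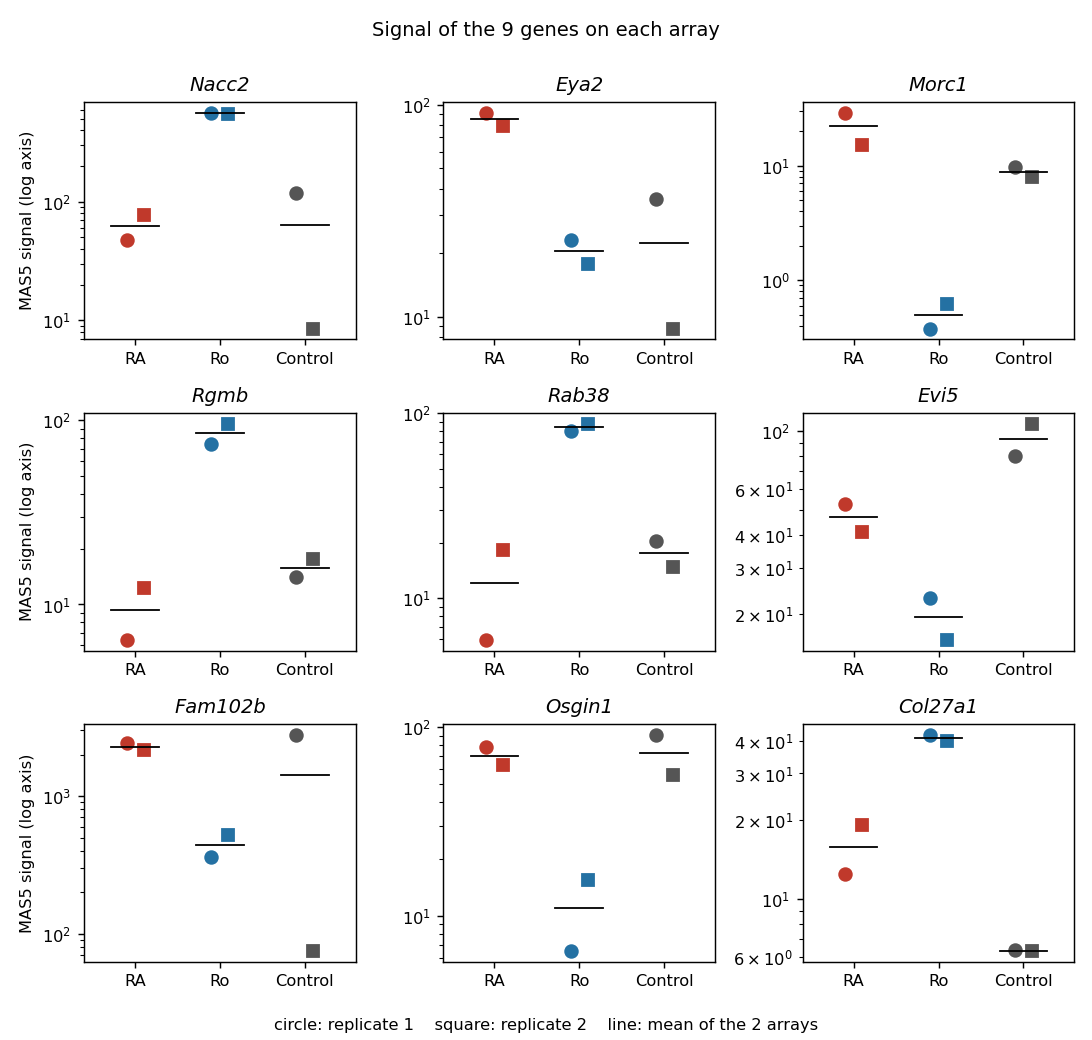
MAS5 signal (log axis, a separate range for each panel) of the probe set that represents each of the 9 genes, with RA, Ro and Control from left to right, circles for replicate 1, squares for replicate 2 and a line at the mean of the 2 arrays. RA and Ro arrays are apart in every panel, and the Control arrays are far from each other for Fam102b (2784 and 75.0) and Nacc2 (119.6 and 8.51).

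Nacc2 codes for a BTB domain repressor that in human cells recruits the NuRD corepressor complex. Its signal was 47.3 and 78.0 in RA, 566 and 552 in Ro, and 119.6 and 8.51 in Control. Both Ro arrays were far above the other 4, and the Control arrays fell on either side of the RA arrays. The means were 62.6 ± 21.7 in RA and 559 ± 9.68 in Ro (SD, n = 2 each), so that the Ro mean was 8.92 times the RA mean. The further probe sets of Nacc2 gave ratios of 7.43, 7.55 and 2.14 in the same direction, the last from a probe set marked as cross-hybridising. In the limma fit of all 6 arrays the log2 difference of RA minus Ro was -2.93 (SE 0.99) relative to the median tested probe set. For Ro minus Control it was 3.62 (SE 0.99). The SE is the same in both because the fit pools the spread of all groups. The gap between the Control arrays thus enters the SE of RA minus Ro too.

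The 2 genes whose pattern over the 6 arrays was most like that of Nacc2 were Cma1, the mast cell chymase, and Scin, which codes for the actin-severing protein scinderin. Likeness was measured as the distance between log2 values after each array was centred on its median and each gene on its mean, and was 0.71 for Cma1 and 1.05 for Scin, with Nacc2 itself lying 4.28 from a flat line. Cma1 stood at 33.9 and 43.9 in RA, 492 and 518 in Ro, and 75.9 and 3.30 in Control. Nacc2 and Cma1 thus shared the order Ro, then Control replicate 1, then RA, then Control replicate 2. The mast cell and basophil markers as a list lay on the same side by value, none of them called: all 11 tested of 14 listed genes were below the median tested probe set in RA minus Ro, with a list median of -1.29, and all 11 were above it in Ro minus Control, with a list median of 2.12. A median over all tested probe sets is 0 on this scale by construction. Summed over the 13 analysed markers, signals were 1683 and 1509 in RA, 6507 and 4296 in Ro, and 4162 and 194 in Control. Mcpt4 was at or near 0, from 0.300 to 3.04 on all arrays, whereas Cpa3, a mast cell carboxypeptidase, had 370 and 382 in RA, 1711 and 1410 in Ro, and 914 and 15.6 in Control. The part of these markers in the Nacc2 values was not tested.

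**Figure D2:**
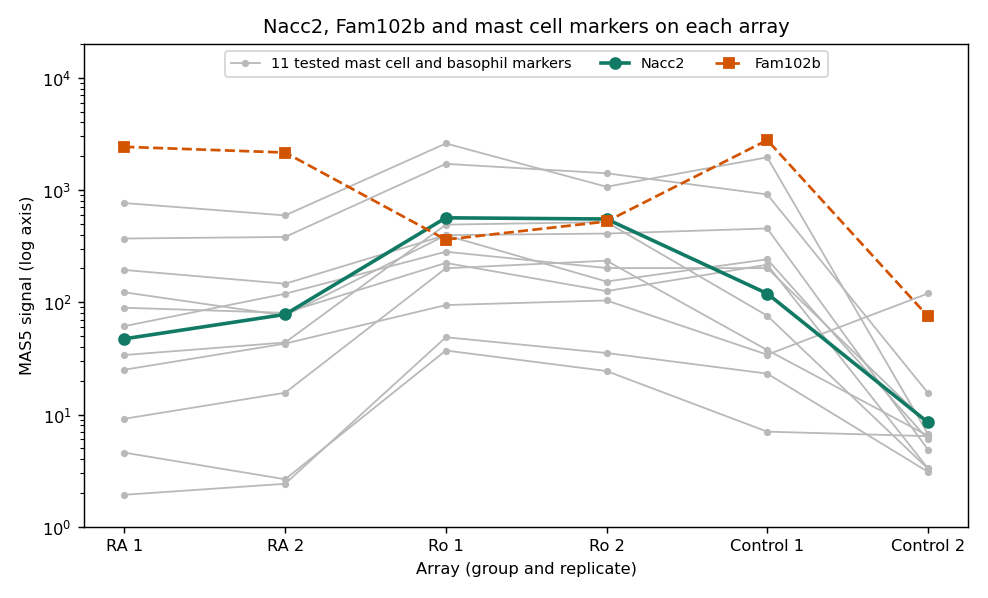
MAS5 signal (log axis) on each of the 6 arrays for Nacc2 (green), Fam102b (orange, dashed) and the 11 tested mast cell and basophil markers (grey). Nacc2 is highest on both Ro arrays (566 and 552) and lowest on Control replicate 2 (8.51), where the markers other than Kit lie at 15.6 or lower.

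The partners of Nacc2 in the repressor family and the NuRD complex were counted next. Nacc1, its closest relative, had 229 and 288 in RA, 324 and 384 in Ro, and 216 and 122 in Control, a log2 difference of RA minus Ro of -0.24. Of 14 tested genes of that list other than Nacc2, 2 lay above and 12 below the median tested probe set in RA minus Ro, with a list median of -0.18. None of the 14 was called in any of the 3 comparisons. In RA minus Control 8 of the 14 were above and 6 below, with a list median of 0.13. Nacc1 and Chd3, a remodelling ATPase of NuRD, both stood at 0.57 there, with limma adjusted p = 0.977 for each.

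Eya2 codes for a coactivator and phosphatase that works with homeodomain transcription factors such as Six2 in development. Its signals were 91.6 and 79.4 in RA, 23.0 and 17.7 in Ro, and 35.8 and 8.77 in Control. Both RA arrays stood above all others, and the Control arrays enclosed the Ro arrays. The RA mean of 85.5 ± 8.65 was 4.21 times the Ro mean of 20.3 ± 3.74. Against Control, a comparison that the choice of genes does not name but which shares its RA and Control arrays, the log2 difference was 1.96 (SE 0.60). It did not pass the test, with an unadjusted p of 0.0112 and a limma adjusted p of 0.977 over all probe sets. Without Control replicate 1 the difference passed at a limma adjusted p of 0.00566, in a fit that called 14.9% of all tested probe sets and kept as its only Control the array that stood apart. Between Ro and Control the Eya2 arrays overlapped.

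Several relatives and partners of Eya2 were dim. Eya3 had 230 and 342 in RA, 441 and 536 in Ro, and 333 and 89.4 in Control, and lay lower in RA than in Ro by value. Eya1 and Eya4 were below the filter, at 0.953 to 8.78 and 1.80 to 4.86 over the 6 arrays. Of the listed homeodomain partners and Dach genes Six2, Six3 and Six5 passed the filter, all at signals of 24.1 or less, and none was called in any comparison. The gene nearest to Eya2 in pattern was Lztfl1, a regulator of ciliary traffic, with 899 and 633 in RA, 258 and 139 in Ro, and 391 and 103 in Control, at a distance of 0.51. The next was Cfap54, a gene of the ciliary axoneme, at 0.88, with signals of 0.908 to 16.8.

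Morc1, which silences transposons in the male germ line of the mouse, was dim on all but the RA arrays. It had 29.0 and 15.1 in RA, 0.378 and 0.620 in Ro, and 9.71 and 8.04 in Control. The groups did not overlap in the order RA, Control, Ro, but both Ro and both Control arrays were dim, so no fold or log2 difference is given here. Its single probe set passed the filter only through the RA arrays, and RA minus Control was not called (limma adjusted p = 0.977). Of the other Morc genes, Morc2a had 174 and 312 in RA, 334 and 380 in Ro, and 257 and 244 in Control. Morc3 had 271 and 372 in RA, 514 and 506 in Ro, and 439 and 139.8 in Control. Both lay lower in RA than in Ro by value, the opposite of Morc1, and Morc2b and Morc4 were below the filter. Fcrl1, an Fc receptor-like gene of B cells, was nearest to Morc1 at a distance of 0.43, with 98.8 and 55.3 in RA, 8.54 and 7.64 in Ro, and 49.7 and 28.4 in Control. The part of B cells was not tested, and the B cell markers had summed signals of 97.0 and 113.9 in RA, 81.7 and 167 in Ro, and 111.4 and 111.9 in Control over 7 of 8 listed genes. The paired receptor genes Cd79a and Cd79b lay between 1.25 and 18.6 and between 22.6 and 84.5 over the 6 arrays, and Ms4a1 and Cd22 reached 37.9 and 32.4 on Ro replicate 2.

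Rgmb codes for a membrane-anchored coreceptor for bone morphogenetic proteins that also binds the checkpoint ligand PD-L2. It had 6.44 and 12.3 in RA, 74.6 and 95.6 in Ro, and 14.2 and 17.5 in Control. On this probe set Ro stood alone at the top, and the RA arrays were just below the Control arrays without overlap. After each array was centred on its median, Control replicate 1 fell within RA. The Ro mean of 85.1 ± 14.9 was 9.09 times the RA mean of 9.36 ± 4.14, with 1 RA array dim. Of its 5 further probe sets, 1 had a Ro mean 3.87 times that of RA with both RA arrays above the dim range. In 3 others both RA arrays were dim, at 0.732 to 8.51 against 15.7 to 42.3 in Ro without overlap, so no ratio is given. The last, which did not pass the filter, had 2.79 and 8.67 in RA and 2.70 and 12.9 in Ro.

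In the BMP pathway around Rgmb, of 16 tested genes other than Rgmb, 9 lay above and 7 below the median tested probe set in RA minus Ro, with a list median of 0.13, and none was called in any comparison. In RA minus Control 7 were above and 9 below, with a list median of -0.04. Rgma, the closest relative, was dim on all 6 arrays at 1.07 to 8.86. The receptor gene Bmpr2 had 136 and 125 in RA, 127 and 64.0 in Ro, and 125 and 138 in Control. Pdcd1lg2, which codes for PD-L2, had 41.9 and 42.0 in RA, 108.1 and 49.4 in Ro, and 86.9 and 181 in Control, a log2 difference of RA minus Control of -1.60 that did not pass (limma adjusted p = 0.977).

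Rab38 codes for a small GTPase that guides cargo to melanosomes and related organelles and is mutated in the chocolate coat-colour mouse. It had 5.96 and 18.3 in RA, 80.4 and 87.7 in Ro, and 20.4 and 14.7 in Control. The Ro mean of 84.0 ± 5.23 was 6.92 times the RA mean of 12.2 ± 8.75, with 1 RA array dim, and RA and Control overlapped. The size depends on which RA array is kept, with a log2 difference of RA minus Ro of -1.88 without RA replicate 1 and -3.00 without RA replicate 2. A cross-hybridising probe set gave a ratio of only 2.38, with 21.3 and 39.6 in RA, 74.9 and 70.2 in Ro, and 49.7 and 17.7 in Control. Among the 12986 genes tested, Rab38 and Rgmb were nearest to each other, at a distance of 0.67 over the 6 arrays. Both were chosen on values of these arrays, which favours such nearness, so nothing is read from it.

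Rab32, its closest relative, had 33.2 and 37.9 in RA, 37.3 and 49.5 in Ro, and 37.8 and 24.6 in Control. Of 17 tested genes of lysosome-related organelles other than Rab38, 3 lay above and 14 below the median tested probe set in RA minus Ro, with a list median of only -0.13, and 8 above and 9 below in RA minus Control. None of the 17 was called in any comparison. The melanocyte marker genes Tyr, Tyrp1, Dct and Mlana were below the filter, at 12.9 or less on every array. The 2 others analysed passed it, Pmel at 28.2 and 20.8 in RA, 35.3 and 33.4 in Ro, and 38.2 and 2.17 in Control, and Sox10 at 8.56 to 32.4 over the 6 arrays. Their part in the Rab38 values was not tested.

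Evi5, found at a viral integration site in mouse T cell lymphoma, codes for a GTPase-activating protein of the Rab11 pathway that also stabilises an inhibitor of the anaphase-promoting complex. Its brighter probe set had 52.6 and 40.9 in RA, 23.0 and 15.9 in Ro, and 80.4 and 107 in Control. The groups did not overlap in the order Control, RA, Ro. The RA mean of 46.8 ± 8.27 was 2.41 times the Ro mean, and the Control mean of 93.5 ± 18.5 was 2.00 times the RA mean. For RA minus Control the log2 difference was -1.04 (SE 0.42, limma adjusted p = 0.977), which did not pass. The second probe set differed, with 6.97 and 13.5 in RA, 20.3 and 10.3 in Ro, and 13.4 and 14.1 in Control, where RA and Ro overlapped. The difference of Evi5 between RA and Ro thus rests on 1 of its 2 probe sets.

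Evi5l, the relative of Evi5, had 38.7 and 65.9 in RA, 50.4 and 46.5 in Ro, and 54.8 and 41.6 in Control. Of 14 tested relatives, Rab11 genes and cell cycle regulators other than Evi5, 11 lay above and 3 below the median tested probe set in RA minus Control, with a list median of 0.20, and none was called. In RA minus Ro 11 were above and 3 below too, with a list median of 0.24. Fbxo5, which codes for the inhibitor that Evi5 stabilises, had 1879 and 1082 in RA, 2209 and 501 in Ro, and 1009 and 218 in Control. The Ro arrays of Fbxo5 enclosed the RA arrays, which those of Evi5 did not. Plk1, a mitotic kinase, had 1303 and 873 in RA, 1255 and 332 in Ro, and 687 and 85.8 in Control, with RA minus Control at 2.03 (limma adjusted p = 0.977).

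Fam102b codes for a little characterised protein named for its sequence family. Its signals were 2425 and 2158 in RA, 362 and 524 in Ro, and 2784 and 75.0 in Control. RA and Control replicate 1 were alike, Ro was lower, and Control replicate 2 was the lowest of all. The RA mean of 2292 ± 189 was 5.17 times the Ro mean of 443 ± 115, and the second probe set gave 5.40 times, with 2857 and 71.1 on the Control arrays. Between the Control arrays Fam102b differed by 4.43 on the array-centred log2 scale, more than 99.5% of tested probe sets, and Nacc2 by 2.69, more than 96.9%. The comparison with Control therefore has no single direction. RA minus Control was 2.21 (SE 1.40, limma adjusted p = 0.977). Without Control replicate 1 it was 4.52 (limma adjusted p = 0.000292, in the same fit with 14.9% called), and without Control replicate 2 it was -0.087.

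Fam102a, the relative of Fam102b that acts in osteoclast formation, went the other way by value, with 537 and 833 in RA, 1054 and 1528 in Ro, and 867 and 458 in Control. The genes nearest to Fam102b were Gucy1a1, a subunit of soluble guanylate cyclase, at a distance of 1.34, and Nrgn, which codes for the calmodulin-binding protein neurogranin. Gucy1a1 had 197 and 206 in RA, 67.1 and 97.7 in Ro, and 247 and 11.4 in Control, so it too was lowest on Control replicate 2.

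Osgin1, an inhibitor of growth that NRF2 induces under oxidative stress in human cells, had 78.1 and 62.9 in RA, 6.51 and 15.5 in Ro, and 90.7 and 55.6 in Control. RA and Control overlapped and Ro lay below both. The RA mean of 70.5 ± 10.8 was 6.42 times the Ro mean of 11.0 ± 6.33, with 1 Ro array dim. RA minus Control was -0.11 (SE 0.50, limma adjusted p = 0.997). Alox15, a lipoxygenase, was nearest in pattern at 0.79, but dim at 0.851 and 1.47 in Ro.

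Of 16 tested relatives and NRF2 targets other than Osgin1, 5 lay above and 11 below the median tested probe set in RA minus Ro, with a list median of -0.19, where Osgin1 stood at 2.68. In RA minus Control 5 were above and 11 below, with a list median of -0.15, and none was called in any comparison. Osgin2, its relative, had 63.5 and 67.7 in RA, 85.2 and 97.4 in Ro, and 69.6 and 114.5 in Control. Hmox1, the haem oxygenase gene, had 26.1 and 2.46 in RA, 15.7 and 7.10 in Ro, and 52.4 and 83.1 in Control.

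Col27a1, a fibrillar collagen of cartilage, was dim in Control. Its better probe set had 12.4 and 19.1 in RA, 42.1 and 39.9 in Ro, and 6.37 and 6.32 in Control, an order of Ro, RA, Control without overlap. The Ro mean of 41.0 ± 1.54 was 2.60 times the RA mean of 15.8 ± 4.80. The second probe set did not separate RA and Ro, with 8.61 and 4.31 in RA, 2.57 and 22.8 in Ro, and 19.7 and 6.86 in Control. For RA minus Control the 2 probe sets lay in opposite directions by value and neither passed (limma adjusted p = 0.977 for each). Both Control arrays of the first were dim, so no log2 difference is given.

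Of 20 listed collagen and collagen-processing genes 13 passed the filter, Col1a1, Col3a1 and Col24a1 not among them. Of the 12 other than Col27a1, 3 lay above and 9 below the median tested probe set in RA minus Control, with a list median of -0.42, and none was called in any comparison. In RA minus Ro 5 were above and 7 below, with a list median of -0.04. Plod2, a collagen lysyl hydroxylase, had 60.9 and 42.9 in RA, 58.3 and 32.8 in Ro, and 60.2 and 483 in Control, the last on replicate 2. Stromal cell markers had summed signals of 33.3 and 58.8 in RA, 64.7 and 65.7 in Ro, and 61.0 and 662 in Control over 8 genes, with Pdpn making up 611 of the last. Their part in the Col27a1 values was not tested.

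Set side by side, the 9 genes gave different places to the Control arrays. On the array-centred log2 scale Control replicate 1 was nearer to the RA mean than to the Ro mean for 8 of 9 genes, all but Eya2, and Control replicate 2 for 7 of 9, all but Eya2 and Fam102b. This nearness rests on the values that chose the genes, since a gene picked because Ro differs from Control tends to have Control away from Ro, so nothing is read from it. Among the 1773 tested probe sets with at least a 2-fold difference and no overlap between RA and Ro, the shares were 55.4% and 51.7%. Ro and Control arrays did not overlap for 7 of the 9 genes, Nacc2, Rgmb, Rab38 and Col27a1 with Ro higher and Osgin1, Morc1 and Evi5 with Ro lower, a difference that the choice of genes used. Over all tested probe sets this held for 35.7%, made up of 26.0% with Ro higher and 9.71% with Ro lower. These signals were not centred, and the median log2 difference of Ro minus Control was 0.29. The part of this offset in the split was not tested. RA and Control arrays did not overlap for 5 of the 20 tested probe sets of these genes. Over all tested probe sets it was 25.0% (9.92% with RA higher and 15.1% with RA lower). All 5 were among the 9 probe sets that represent the genes, so the share depends on which probe sets are counted. Nothing is read from it. These 5 represent Eya2, Morc1 and Col27a1, with RA higher, and Rgmb and Evi5, with RA lower. On the further probe sets of Rgmb, Evi5 and Col27a1 RA and Control overlapped.

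**Figure D3:**
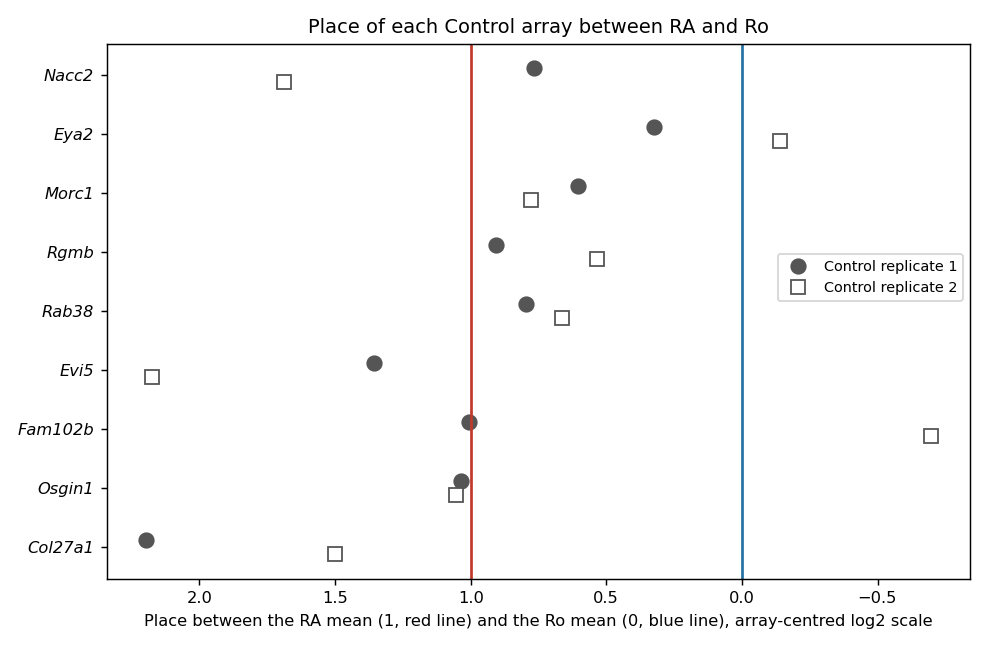
Place of each Control array between the RA mean (red line at 1, left) and the Ro mean (blue line at 0, right) on the array-centred log2 scale, for the probe set that represents each gene; filled circles are Control replicate 1 and open squares replicate 2. Both Control arrays of Osgin1 lie at the RA line, those of Evi5 and Col27a1 lie beyond it, and those of Fam102b lie at the RA line and beyond the Ro line.

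In RA minus Control, the comparison left over by the choice of genes, limma called 0 of the 20 tested probe sets of these genes and 0 of all 29507, which is 0.0%. Adjusted p-values of the 20 ran from 0.977 to 0.997. At an unadjusted p under 0.05 there was 1 of the 20, that of Eya2, against 1.81% of all tested probe sets. The RA and Control arrays also entered the comparisons that chose the genes, and some of the 20 belong to the same gene. Nothing is therefore read from that share. Differences of RA minus Ro and of Ro minus Control were called for 0 probe sets either, with 1.68% and 4.07% at an unadjusted p under 0.05. A fit without the Control arrays called 12 probe sets, or 0.043%, among them both of Fam102b and 2 of the 4 of Nacc2, a result that helped to choose these genes.

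**Figure D4:**
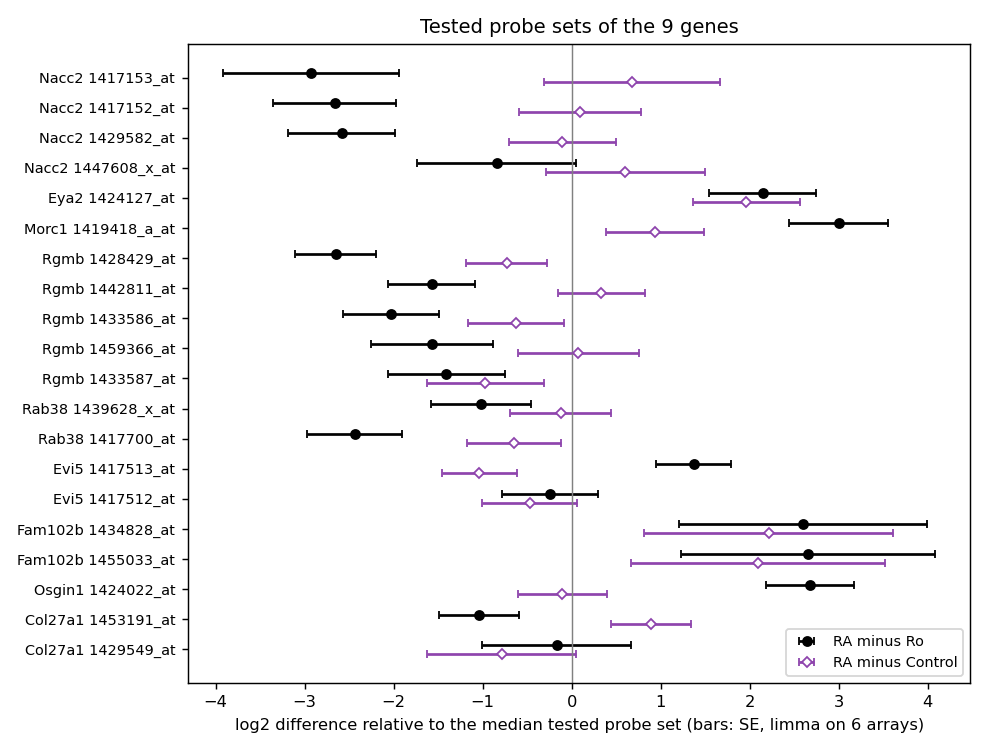
Log2 differences of RA minus Ro (black circles) and RA minus Control (open purple diamonds) for the 20 tested probe sets of the 9 genes, relative to the median tested probe set, with SE from limma on 6 arrays as bars. The SE pools the spread of all groups, so the bars of RA minus Ro also hold the gap between the Control arrays. The probe sets of Fam102b, Nacc2, Rgmb and Rab38 keep 1 direction in RA minus Ro, and those of Evi5 do not (1.37 and -0.24). At least 1 of the 6 arrays was dim for 14 of the 20 probe sets, which include every gene but Fam102b. Sizes that rest partly on dim arrays include those for Morc1, 3 of the Rgmb probe sets and Col27a1.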

How the data were processed

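The deposited intensity values are MAS5 probe set signals on a linear scale, which the authors made without a version or scaling target given in the sources used here, per the submitters' processing notes. The mean signal of an array without its outer 2% on both sides was 116 to 179, not 1 shared value. Detection calls were not used here. The 64 control probe sets were left out, and GEO's platform annotation gave 34945 probe sets 1 gene symbol, 932 several and 9160 none, of which Entrez IDs changed 0 symbols and 204 found no match.

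Testing was limited to the 29507 probe sets that exceeded the 40th percentile of the array in 2 or more of the 6 arrays. Differences of log2(signal + 3.00), the pseudocount being the 20th percentile of all values, were fitted to all 6 arrays with limma 3.58.1 under R 4.3.3 (lmFit, then eBayes with trend = TRUE) with 3 residual degrees of freedom, two-sided, with Benjamini-Hochberg adjustment over the tested probe sets and a threshold of 0.05. The scripts were tested on simulated data. The pseudocount makes differences of dim genes look smaller. Because the median log2 difference was 0.09 for RA minus Control, -0.21 for RA minus Ro and 0.29 for Ro minus Control, log2 differences are printed relative to it, while p-values test the uncorrected difference and signals and ratios are uncorrected. Where a gene had several tested probe sets, that of the highest mean log2 value stood for it, cross-hybridising ones aside.

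The genes named were the 9 chosen ones, their closest relatives, up to 3 members of each family list with a mean of at least 50 in a group, by size of RA minus Control, and the 2 genes nearest in pattern. Single further list members and markers (Bmpr2, Eya4, Six2, Six3, Six5, Morc2a, Morc2b, Morc4, Cpa3, Mcpt4, Kit, Cd79a, Cd79b, Ms4a1, Cd22, Pmel, Sox10, Cd8a, Cd8b1, Pdpn) were named after their values were seen. Genes and lists were chosen with earlier results of these data known. A listed gene without a probe set of its own symbol was not analysed here. Alternatives were other pseudocounts, normalizations and filters, no trend, a replicate block, only the groups compared, gene means and leaving out each array. Promoters are from RefSeq, and no genome build is named for the arrays.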

Additional observations from a re-analysis of the deposited data

How the results depend on the processing

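With 2 arrays a group, the counts of called probe sets turned on the Control arrays. The counts, 0 in each comparison with all 6 arrays, ran from 0 to 4405 for RA minus Control, from 0 to 13 for RA minus Ro and from 0 to 7228 for Ro minus Control when 1 array was left out, in fits that take a lone array to vary like the other groups. For RA minus Control there were 4405 without Control replicate 1 and 4 without Control replicate 2, for RA minus Ro 12 and 13, and for Ro minus Control 7228 and 0. The fit of only the groups compared called 12 for RA minus Ro and 0 for the other comparisons. Every other setting tried called 0, the replicate block included, with 890, 404 and 1230 at an unadjusted p under 0.05. The labels give no pairing, and deviations of same-numbered arrays correlated at 0.249 for RA and Ro, 0.0048 for RA and Control and -0.029 for Ro and Control.

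Of 142 values of the 9 genes for RA minus Ro none turned direction, which the choice of genes favours, but 16 moved by more than the spread between replicates, as did 20 of 141 for Ro minus Control. For RA minus Ro Morc1, dim on both Ro arrays, was 4.10 with a pseudocount of 1 and 1.19 with one at the median of all values. Its size thus turned on the pseudocount and is not read. With the mean of all probe sets of a gene Rgmb was -1.84, Rab38 -1.73, Evi5 0.57 and Col27a1 -0.60. Without RA replicate 1 or 2 Rab38 was -1.88 or -3.00. For RA minus Control, where moves were not counted, 3 of 142 turned direction, each with 1 array left out. Fam102b ran from -0.087 to 4.52, Nacc2 from -0.75 to 2.12 and Osgin1 from -0.34 to 0.11. Without Control replicate 1 Fam102b, Nacc2 and Eya2 passed (limma adjusted p = 0.000292, 0.00885 and 0.00566), in the fit that called 14.9% of all tested probe sets. For Ro minus Control 4 of 141 turned: Fam102b ran from -2.71 to 1.96 and Eya2 from -0.79 to 0.44 with 1 array left out, and Eya2 was 0.10 after quantile normalization. The cause was not tested. Morc1 and Col27a1 were not tested with the filter at the 60th percentile, nor Morc1 for Ro minus Control with only those groups.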
